A study of Mus musculus with 71 samples.

Results

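The HoxC cluster is the run of 9 homeobox genes on mouse chromosome 15, from Hoxc13 at the one end to Hoxc4 at the other. In RefSeq's GRCm38.p6 annotation, which shares its primary coordinates with the mm10 build of the files, the cluster spans chr15:102921131-103036856, or 115.7 kb. Intervals were taken from the peak tables where the nearest gene name was Hoxc4, Hoxc5, Hoxc6, Hoxc8, Hoxc9, Hoxc10, Hoxc11, Hoxc12 or Hoxc13 and the distance to that gene's start was at most 10 kb. This gave 22 of 72567 intervals over 9 tables, in 7 of them. Of the 9 genes, 6 named an interval, and Hoxc5, Hoxc6 and Hoxc8 named none. A further 8 intervals overlapped the cluster under the name of a microRNA gene inside it, Mir196a-2 or Mir615. In CBX7 ChIP, in RING1B ChIP of embryonic stem cells and of the time course, and in H3K27me3 CUT&RUN, the interval that covers all 9 genes is one of these, so it was included after the tables had been seen and is named as the cluster interval throughout.

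The study compared J1 mouse embryonic stem cells (ESC), grown on fibroblast feeders, that express wild-type CBX7 (WT) with cells of the genotype CBX7-CaPS, where CaPS is a Polycomb domain found in committed cells. The genotype CBX7-mCaPS is present in 1 RING1B CUT&RUN library. The labels do not say what the m stands for, nor how many clones a genotype comprises. CBX7, RING1B (both subunits of Polycomb repressive complex 1, PRC1) and the histone mark H3K27me3 were mapped by ChIP-seq or CUT&RUN in ESC, in neural progenitor cultures (NPC) on days 6 and 8, to which retinoic acid was added at 5 uM from day 4, and in embryoid bodies (EB) on day 10. WT and CaPS were compared in CBX7 and RING1B ChIP of ESC (3 libraries per genotype, experiments 1, 2 and 3), H3K27me3 ChIP of ESC (2 per genotype, experiments 1 and 5), RING1B ChIP of day 8 (2 per genotype, experiments 3 and 4) and a RING1B time course of ESC, day 6 and day 8 (2 per genotype and stage, experiments 3 and 5). The other tables hold 1 column per genotype, headed as pooled for H3K27me3 of day 8. Libraries of the knockout genotype were not analysed here.

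PRC1 and PRC2 keep developmental genes silent in stem cells: PRC2 writes H3K27me3, CBX7 binds that mark, and RING1B is the catalytic subunit that marks histone H2A. Hox genes are transcription factors that set position along the body axis, and they are opened in the order of their place in the cluster. Hoxc4, Hoxc5 and Hoxc6 act at anterior levels, Hoxc8 and Hoxc9 in the thorax, and Hoxc10, Hoxc11, Hoxc12 and Hoxc13 at posterior levels, Hoxc13 also in hair and nail. Retinoic acid is a known inducer of anterior Hox genes.

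Values are tags in an interval scaled to 10000000 tags per library, called normalised tags below. Library totals ran from 2.01 M to 49.13 M tags over 41 columns. The share of tags inside peaks ran from 2.63% to 16.96% in CBX7 ChIP and from 3.47% to 19.34% in RING1B ChIP of ESC, so a value reflects enrichment of the whole library as well as the locus. The labels do not say that replicates were separate cultures, so the spread between libraries may be technical. The limma p-values and their SEs rest on a variance taken from the trend over all intervals of a table. They do not measure the spread of the libraries at a HoxC interval itself. RING1B samples of experiment 3 stand in more than 1 table: WT and CaPS ESC in the ESC and time course tables, WT and CaPS day 8 in the day 8 and time course tables, so these tables are not independent. Their totals were 19.18 M and 18.6 M tags for WT ESC, 27.09 M and 24.55 M for CaPS ESC, 10.34 M and 11.81 M for WT day 8, and 25.34 M in both tables for CaPS day 8.

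The 2 microRNA genes that lend their names to HoxC intervals lie inside the cluster, Mir196a-2 between Hoxc10 and Hoxc9 (chr15:102973350-102973434) and Mir615 inside Hoxc5 (chr15:103014910-103015001). Their mature sequences from RefSeq (GRCm38.p6) are shown because these names stand for the cluster in the tables, with the seed, bases 2 to 8, in capitals.
mmu-miR-196a-5p: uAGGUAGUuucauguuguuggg
mmu-miR-196a-2-3p: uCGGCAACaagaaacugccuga
mmu-miR-615-5p: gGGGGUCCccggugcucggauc
mmu-miR-615-3p: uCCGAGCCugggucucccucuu
The miR-196a-5p seed was shared by 2 of 1679 mature microRNAs in the table, the other being mmu-miR-196b-5p, whose gene Mir196b lies in the HoxA cluster on chromosome 6. The same mature miR-196a-5p is also encoded by Mir196a-1 in the HoxB cluster on chromosome 11. miR-196 is known to target Hox transcripts, Hoxb8 among them. The arm mmu-miR-615-3p shared its seed with no other entry.

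In ESC, PRC1 covered HoxC as a single block. The cluster interval of the CBX7 and RING1B ChIP tables, named Mir196a-2, spanned chr15:102908418-103037996, 129.58 kb, and covered all 9 genes completely. It was the longest of 6326 intervals, and its level stood at percentile 99.97 of all intervals in both tables. Per kilobase it was at percentile 97.68 for CBX7 and 97.87 for RING1B, so length contributed to its rank. In the time course the cluster interval reached 136.79 kb (chr15:102905269-103042062), and in H3K27me3 CUT&RUN of ESC 143.59 kb (chr15:102902015-103045606), again the longest of each table. H3K27me3 ChIP of ESC split the cluster into 3 long segments named Hoxc12 (50.26 kb), Hoxc9 (41.53 kb) and Mir615 (34.56 kb). The gaps left 43.7% of Hoxc11, 82.7% of Hoxc6 and 93.0% of Hoxc4 covered, and the other 6 genes were covered completely. RING1B CUT&RUN of ESC placed Hoxc13 to Hoxc5 in a single interval named Hoxc10 (106.11 kb), with a separate 11.79 kb interval near Hoxc4.

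**Figure D1:**
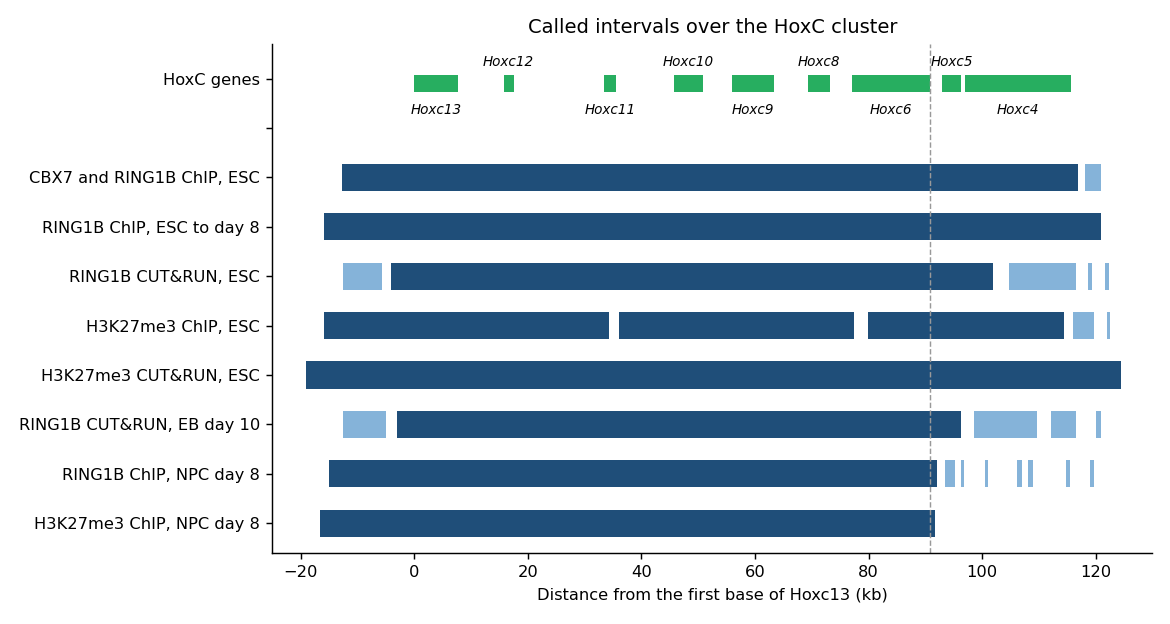
Called intervals over HoxC in each peak table, with distance from the first base of Hoxc13 in kb on the horizontal axis; green bars are genes, dark bars intervals over 30 kb, light bars shorter ones, and the dashed line is the end of Hoxc6. In both day 8 NPC tables the long interval ends between Hoxc6 and Hoxc5, while the ESC intervals run on over Hoxc5 and Hoxc4.

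On day 8 of neural differentiation the domain ended between Hoxc6 and Hoxc5. The RING1B interval, named Hoxc11, ran from 102906096 to 103013154 (107.06 kb) and the H3K27me3 interval of the same name from 102904419 to 103012805 (108.39 kb). Hoxc6 ends at 103011882 and Hoxc5 starts at 103014008, so the ends of the called intervals fell between these genes in both tables, which were called separately. Hoxc6 to Hoxc13 were covered completely in both. Hoxc5 was covered to 50.6% and Hoxc4 to 15.3% by short RING1B intervals, and both to 0.0% by H3K27me3. These short RING1B intervals, 7 in number and 5.73 kb in total, held tags at 24.1% and 24.98% of the density of the Hoxc11 interval in the 2 WT libraries, and at 25.4% and 23.5% in the 2 CaPS libraries, so the genotypes lay within 2 percentage points of each other. In day 10 embryoid bodies, by contrast, the RING1B CUT&RUN interval named Hoxc10 covered Hoxc5 completely, and 78.6% of Hoxc4 was covered by 2 intervals named Hoxc4. Peaks were listed once per table for all genotypes, so interval ends carry no genotype difference, and the stages were called in different tables. Assay and treatment differed too: day 10 was mapped by CUT&RUN and day 8 by ChIP, and of these retinoic acid is listed for day 8 only. Whether the ends differ between stages was not tested. The other clusters also had uncovered genes in the day 8 H3K27me3 table, 4 of 11 in HoxA, 4 of 10 in HoxB and 1 of 9 in HoxD, against 2 of 9 in HoxC.

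Per library total, CBX7 over HoxC was lower in CaPS than in WT in each of 3 ESC experiments. In the cluster interval, WT held 10527, 29648 and 9345 normalised tags in experiments 1, 2 and 3, and CaPS held 4666, 12523 and 6697. Each CaPS library was below its WT partner, but the groups overlapped because experiment 2 was high in both genotypes. The log2 difference of CaPS minus WT was -0.97 (SE 0.48, n = 3 against 3, limma with the experiment as a block, Benjamini-Hochberg adjusted p = 0.0903), which did not pass the threshold of 0.05. The median over all 6326 intervals was -0.85, and the Mir196a-2 interval was at percentile 41.3, near the middle of the table. The direction rested on the scaling: with the summed peak tags of all libraries made equal the difference was 0.086, and HoxC held 1.65%, 1.75% and 1.68% of WT tags in peaks against 1.77%, 1.76% and 1.84% of CaPS tags in peaks.

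The single CBX7 interval that carries a member's name is a 2.80 kb stretch at chr15:103039312-103042114, 6318 bp downstream of the Hoxc4 start and outside the gene. WT held 50.3, 141 and 54.9 normalised tags there, and CaPS 25.9, 58.9 and 34.2. Each CaPS library again lay below its partner. The log2 difference at the Hoxc4 flank was -0.95 (SE 0.29), and it passed the test (limma adjusted p = 0.00384, lower in 3 of 3 experiments). So did 44.3% of all intervals in the lower direction, and the flank was at percentile 42.9, so its decrease was of the size seen across the table. The call was lost without experiment 1 (adjusted p = 0.076) or experiment 2 (0.0916), and with the summed peak tags of all libraries made equal the difference was 0.084.

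RING1B over HoxC in ESC did not pass the test. In the Mir196a-2 cluster interval WT held 10274, 29540 and 16981 normalised tags and CaPS 5805, 13240 and 15722. CaPS was below WT in 3 of 3 experiments, by little in experiment 3, and the groups overlapped. The log2 difference was -0.70 (SE 0.51, limma adjusted p = 0.451), with the median of all intervals at -0.67, and only 0.142% of intervals were called lower. The direction rested on the scaling here too. With equal summed peak tags the difference was 0.082. HoxC held 1.565%, 1.527% and 1.796% of WT tags in peaks against 1.674%, 1.614% and 1.885% of CaPS tags in peaks. At the Hoxc4 flank WT held 55.7, 172 and 101 normalised tags and CaPS 35.6, 56.2 and 78.6, with a log2 difference of -0.86 (SE 0.46, limma adjusted p = 0.291). Without experiment 3 the 2 cluster interval differences were -1.21 for CBX7 and -0.99 for RING1B, with limma adjusted p = 3.09e-50 and 4.88e-63. In those fits of 2 against 2, the variance of the strongest intervals came from the trend over all intervals.

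**Figure D2:**
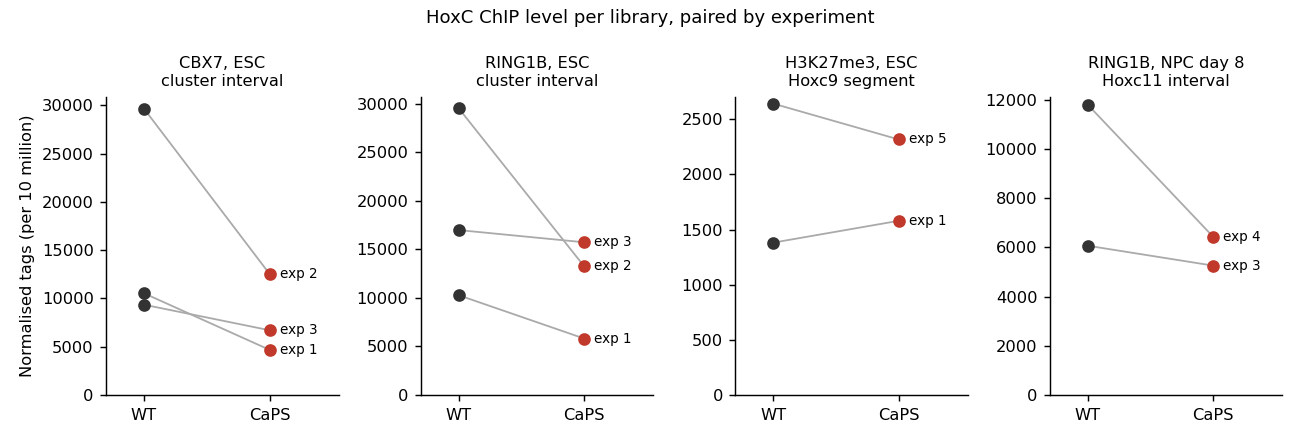
Normalised tags (vertical axis, from 0) over HoxC in each ChIP library, WT and CaPS joined by experiment (exp). CaPS lies below WT in each of the 3 CBX7 and 3 RING1B ESC pairs and the 2 RING1B day 8 pairs, whereas the 2 H3K27me3 pairs go in opposite directions. Values are per library total, and the CBX7 and RING1B ESC differences changed sign with equal summed peak tags.

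CBX7 and RING1B were listed over the same intervals, so their levels can be set side by side. In experiments 1, 2 and 3 the WT ratio of CBX7 to RING1B tags in the Mir196a-2 cluster interval was 1.02, 1.00 and 0.550, and the CaPS ratio 0.804, 0.946 and 0.426. It was lower in CaPS in each experiment, while experiment 3 lay below the others in both genotypes. At the Hoxc4 flank the ratio was lower in CaPS in experiments 1 and 3 and higher in experiment 2 (1.05 against 0.821). The ratio also carries the enrichment of both libraries. For CBX7 and RING1B, WT had 6.4% and 6.57%, 16.96% and 19.34%, and 5.57% and 9.45% of tags in peaks by experiment. CaPS had 2.63% and 3.47%, 7.1% and 8.2%, and 3.63% and 8.34%. The part of enrichment in the ratio was not tested. Over all intervals the WT median ratio was 0.859, 0.577 and 0.584 and the CaPS median ratio 0.659, 0.713 and 0.437, so it did not move the same way in every experiment. HoxC was between percentiles 42.6 and 88.4 of the intervals by this ratio.

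Against the other Hox clusters in the same library, HoxC took a larger share in CaPS. Summed HoxC tags were 34.4%, 32.7% and 34.1% of the summed HoxA, HoxB and HoxD tags for CBX7 in WT, and 39.1%, 37.3% and 37.3% in CaPS. The same RING1B shares stood at 33.8%, 32.4% and 34.2% for WT libraries and 39.5%, 38.2% and 38.1% for CaPS libraries. No WT library overlapped CaPS for either protein. The log2 difference was 0.17 (SE over experiments 0.02) for CBX7 and 0.21 (SE 0.03) for RING1B, each with a two-sided exact permutation p = 0.1 (n = 3 against 3), the smallest that 3 against 3 allows, and 0.167 after adjustment over 10 ratios.

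The difference was larger against HoxA than against HoxB or HoxD, and these ratios were not tested against each other. For CBX7, HoxC over HoxA tags stood at 0.813, 0.745 and 0.762 in WT and 1.05, 0.999 and 0.981 in CaPS. The ratio to HoxA was higher in CaPS by 0.38 (log2, SE 0.02) for CBX7 and 0.42 (SE 0.02) for RING1B without overlap (exact permutation p = 0.1 each, adjusted 0.167), and the ratio to HoxB moved by -0.006 for CBX7 (exact permutation p = 0.8) and 0.07 for RING1B (exact permutation p = 0.1, groups without overlap, adjusted 0.167). Against HoxD the difference was 0.07 for CBX7 and 0.05 for RING1B (exact permutation p = 0.4 and 0.6), with overlapping groups. Against all tags in peaks, HoxC was higher in CaPS in 3 of 3 experiments for each protein, by 0.086 for CBX7 without overlap (exact permutation p = 0.1) and by 0.082 for RING1B with overlap (exact permutation p = 0.5). HoxA lies on chromosome 6, and the median log2 difference of all chromosome 6 intervals minus that of the other autosomes was between -0.35 and -0.13 in 6 of 6 CBX7 and RING1B pairs, whereas chromosome 15, which holds HoxC, was between -0.04 and 0.10. For H3K27me3 ChIP of ESC the chromosome 6 value was -0.38 and -0.25 in experiments 1 and 5. The chromosome 15 value was 0.05 and 0.03. In the same H3K27me3 libraries, HoxC over HoxA stood at 0.884 and 0.852 in WT and 1.06 and 1.05 in CaPS. The part of the chromosome in the HoxA difference was not tested.

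**Figure D3:**
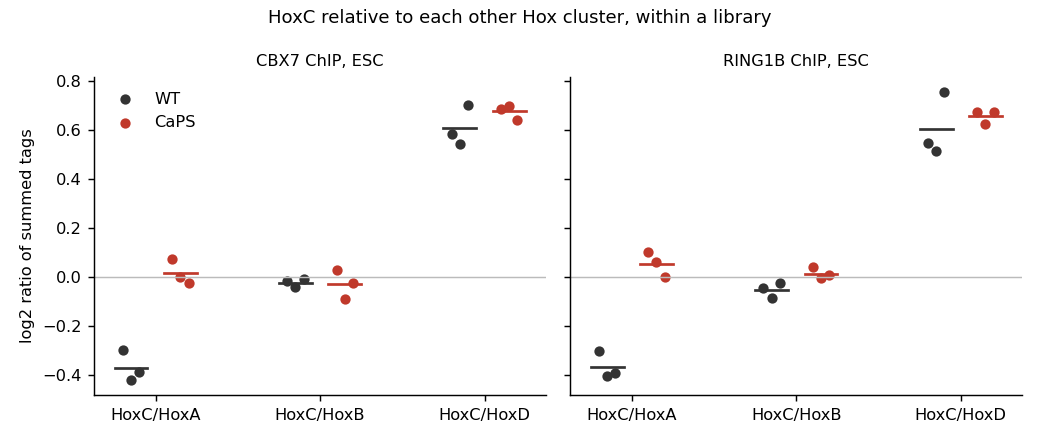
The log2 ratio of summed HoxC tags to summed tags of HoxA, HoxB or HoxD in the same ESC library (points; bars are the mean of 3 libraries), for CBX7 and RING1B ChIP. WT and CaPS lie farthest apart in the ratio to HoxA; in the ratio to HoxB they overlap for CBX7 and narrowly separate for RING1B, and in the ratio to HoxD they overlap for both.

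H3K27me3 over HoxC in ESC did not pass the test, whose variance came from the trend over all intervals. In the Hoxc9 segment, over Hoxc10, Hoxc9 and Hoxc8, WT held 1381 and 2642 normalised tags in experiments 1 and 5 and CaPS 1579 and 2316. CaPS was higher in experiment 1 and lower in experiment 5. The log2 difference was 0.002 (SE 0.53, limma adjusted p = 1.00). The Hoxc12 segment, over Hoxc13, Hoxc12 and part of Hoxc11, gave 0.01. The Mir615 segment, over much of Hoxc6, Hoxc5 and most of Hoxc4, gave -0.06. The 2 short intervals on the Hoxc4 side gave 0.17 each. Of all 9195 intervals 0.0% were called in either direction at an adjusted p under 0.05 by limma or edgeR, and 101 by limma and 92 by edgeR had an unadjusted p under 0.05.

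Within each H3K27me3 library the Hoxc9 segment, in the middle of the cluster, was the densest of the long segments. The Hoxc12 segment starts at 102905220, ahead of the first base of Hoxc13 at 102921131, so its density includes flank outside the cluster. The part of that flank in its lower density was not tested. WT held 33.2 and 63.6 normalised tags per kb in the Hoxc9 segment. The Hoxc12 segment had 76.5% and 75.7% of that density and the Mir615 segment 77.5% and 80.8%. In CaPS the Hoxc12 segment had 82.3% and 70.9%, and the Mir615 segment 76.2% and 75.7%, so the order of Hoxc9 above the flanking segments held in 4 of 4 libraries.

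The time course followed RING1B over the cluster interval from ESC to day 8, with no step passing the test. The SE of each step, 0.86 on the log2 scale, came from the trend over all intervals. The missing calls therefore do not measure how well the replicates matched at HoxC. In WT it held 17151 and 19423 normalised tags in ESC, 10713 and 11265 on day 6, and 6327 and 15075 on day 8, for experiments 3 and 5. Both day 6 libraries were below both ESC libraries, and on day 8 the experiments parted. The direction in WT rested on the scaling. Of WT tags in peaks, HoxC held 1.54% and 1.64% in ESC, 1.82% and 1.71% on day 6, and 1.64% and 2.16% on day 8. With equal summed peak tags, the log2 change in WT was 0.15 from ESC to day 6 and 0.24 from ESC to day 8. In CaPS the cluster interval held 15897 and 17289 normalised tags in ESC, 7522 and 19011 on day 6, and 5517 and 11268 on day 8. Both CaPS day 8 libraries thus lay below both ESC libraries. The CaPS share of tags in peaks was 1.57% and 1.56% in ESC, 1.34% and 1.58% on day 6, and 1.11% and 1.32% on day 8.

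The log2 change from ESC to day 8 at the Mir196a-2 interval was -0.90 in WT (SE 0.86, limma adjusted p = 0.501) and -1.07 in CaPS (SE 0.86, limma adjusted p = 0.437). The median of all 15091 intervals was -0.61 and -0.48, and 20.9% and 14.1% of intervals were called lower. From ESC to day 6 the change was -0.73 in WT (limma adjusted p = 0.621, 14.6% called lower) and -0.47 in CaPS (limma adjusted p = 0.791, 5.06% called lower), and from day 6 to day 8 it was -0.17 and -0.60 (limma adjusted p = 0.95 and 0.762, with 0.239% and 0.113% called lower). On day 6, CaPS minus WT was 0.12 (limma adjusted p = 0.956, 3.66% called higher), and on day 8 it was -0.31 (limma adjusted p = 0.949, 0.245% called lower). With the summed peak tags of all libraries made equal, a setting tried for day 8 after seeing the data, the day 8 difference was -0.63 and passed the test (limma adjusted p = 0.000505), with 146 intervals called lower. The difference between the genotypes in the change from ESC to day 8 was -0.17 (SE 1.22, limma adjusted p = 0.988, 0.0729% called lower). The Hoxb5os interval, the strongest of the HoxB cluster, fell in WT (log2 -2.63, limma adjusted p = 0.00173) and in CaPS (log2 -2.08, limma adjusted p = 0.0261).

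Relative to HoxA, HoxB and HoxD summed, HoxC RING1B was higher at each later stage in WT. In CaPS its day 8 values lay below its day 6 values. HoxC tags were 30.7% and 30.9% of summed HoxA, HoxB and HoxD tags in WT ESC, 39.3% and 39.1% on day 6, and 45.4% and 49.3% on day 8. In CaPS they were 34.9% and 34.9% in ESC, 39.6% and 41.2% on day 6, and 35.4% and 37.7% on day 8. In WT, HoxC over HoxA went from 0.750 and 0.803 in ESC to 1.29 and 1.33 on day 8. Over HoxB it went from 0.890 and 0.818 to 1.555 and 1.92. Over HoxD it changed little, from 1.258 and 1.292 to 1.273 and 1.322. In CaPS the ratio to HoxB did not fall, with 1.30 and 1.32 on day 6 and 1.35 and 1.39 on day 8. Against HoxA, HoxB and HoxD summed, CaPS lay above WT in ESC and below it on day 8, with no overlap at either stage. Taken singly, not every cluster separated the genotypes in ESC. Over HoxD they overlapped, with CaPS libraries at 1.286 and 1.229. CaPS libraries lay above both WT libraries over HoxA, at 0.990 and 1.04, and over HoxB, at 0.926 and 0.921. With 2 libraries per group no permutation test can pass, and none was run.

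The day 8 separation was present against each cluster. HoxC over HoxA stood at 1.29 and 1.33 for WT against 1.01 and 1.12 for CaPS, over HoxB at 1.555 and 1.92 against 1.35 and 1.39, and over HoxD at 1.27 and 1.32 against 0.914 and 0.968. As a share of all tags in peaks, HoxC held 1.64% and 2.16% in WT and 1.11% and 1.32% in CaPS.

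**Figure D4:**
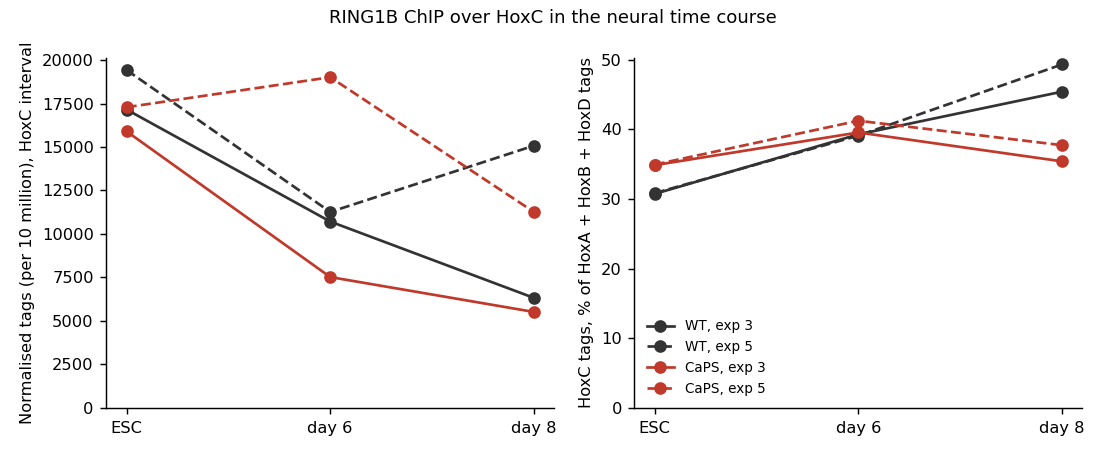
RING1B ChIP over HoxC in ESC and on days 6 and 8 (horizontal axis), as normalised tags in the cluster interval (left) and as a percent of HoxA, HoxB and HoxD tags in the same library (right); each line is 1 genotype in 1 experiment (exp). On the right, CaPS lies above WT in ESC, near it on day 6 and below it on day 8.

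The day 8 RING1B table shares its experiment 3 samples with the time course, and experiment 4 is held there only. In the Hoxc11 interval, over Hoxc13 to Hoxc6, WT held 6067 and 11803 normalised tags in experiments 3 and 4, and CaPS 5256 and 6422. CaPS was lower in both experiments, and the groups overlapped. The log2 difference was -0.54 (SE 0.52, limma adjusted p = 0.785), against a median of -0.37 and 0.0% of intervals called lower by limma or edgeR (532 and 525 had an unadjusted p under 0.05 in either direction). HoxC took 2.38% and 2.34% of WT tags in peaks and 1.57% and 2.03% of CaPS tags in peaks. With the summed peak tags of all libraries made equal, the Hoxc11 difference was -0.41 and passed the test (limma adjusted p = 0.00277), with 243 of 5393 intervals called lower. The strongest intervals of HoxA, HoxB and HoxD, named Hoxa10, Hoxb8 and Hoxd13, differed by -0.22, -0.16 and 0.10 without that scaling. The median log2 difference of all chromosome 15 intervals minus that of the other autosomes was -0.06 and -0.22 in experiments 3 and 4. For chromosome 6 (HoxA) it was 0.01 and 0.004. For chromosome 11 (HoxB) it was -0.11 and -0.11, and for chromosome 2 (HoxD) 0.03 and 0.04. The part of the chromosome in the day 8 HoxC differences was not tested.

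Of the 7 short day 8 RING1B intervals over and beyond Hoxc5 and Hoxc4, none passed the test. The strongest, named Mir615 and 1.72 kb long, held 25.2 and 47.8 normalised tags in WT and 32.8 and 27.8 in CaPS for experiments 3 and 4, on 25 to 83 tags. The genotypes overlapped and the experiments disagreed in direction. The 4 intervals named Hoxc4 had log2 differences from -1.30 to -0.22, on 4.0 to 35.5 tags per library.

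The remaining tables hold 1 column per genotype, so they give a ratio with no test, and for single libraries an exact 95% interval for counting error only. In H3K27me3 CUT&RUN of ESC the cluster interval held 5015 normalised tags in WT and 9151 in CaPS, a ratio of 1.82 (1.77 to 1.88). The median ratio was 1.18, 4.57% of intervals were over 2-fold higher, and HoxC was at percentile 93.1. HoxA, HoxB and HoxD, summed, were near it at percentiles 89.1, 92.3 and 87.9. The H3K27me3 ChIP pair of the same experiment number differed in the Hoxc9 segment by 0.19 on the log2 scale.

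RING1B CUT&RUN of ESC gave 5370 normalised tags in WT, 4697 in CaPS and 2414 in mCaPS over the Hoxc10 interval. CaPS to WT was 0.875 (0.846 to 0.904), above the median of 0.631, and at percentile 81.0. Summed over HoxA, HoxB or HoxD, CaPS to WT lay above that median too. With equal summed peak tags CaPS to WT at the Hoxc10 interval was 1.34, on the other side of 1, and mCaPS to WT was 1.00. mCaPS to CaPS was 0.514 (0.491 to 0.538) and mCaPS to WT 0.450 (0.431 to 0.469), with medians of 0.778 and 0.493. In the lower direction 27.2%, 13.9% and 51.3% of intervals were past 2-fold in these 3 comparisons. The Hoxc13 interval held 207, 166 and 89.5 normalised tags in WT, CaPS and mCaPS, and the longest Hoxc4 interval 301, 333 and 166. mCaPS was thus the lowest of the 3 libraries at each of these intervals, as it was in its share of tags in peaks (2.07%, against 4.61% in WT and 3.01% in CaPS).

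H3K27me3 ChIP on day 8 gave 17342 normalised tags in WT and 7734 in CaPS over the Hoxc11 interval, the authors' values from columns headed as pooled, a ratio of 0.446, or 0.890 with equal summed peak tags. The median ratio was 0.469 and 54.5% of intervals were over 2-fold lower, so HoxC followed the table. The pooled columns held 4.47 M and 32.88 M tags, with 16.35% and 8.20% in peaks. In RING1B CUT&RUN of day 10 embryoid bodies the Hoxc10 interval held 3178 in WT and 3045 in CaPS, a ratio of 0.958 (0.916 to 1.00), against a median of 1.12 and 8.46% of intervals over 2-fold lower. Summed over HoxA, HoxB or HoxD, the ratio also lay below that median. At the other 4 HoxC intervals of that table the ratio ran from 0.868 to 1.16.

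**Figure D5:**
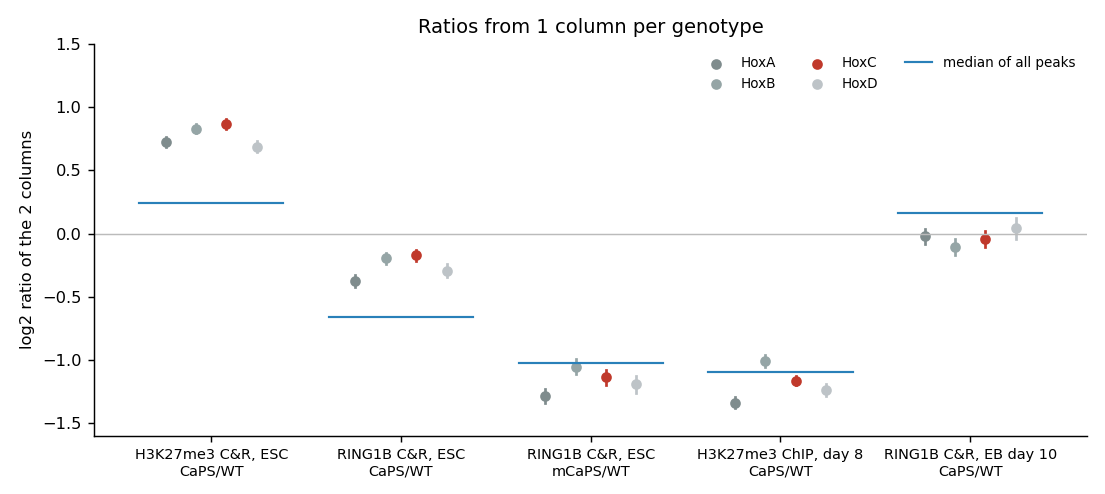
The log2 ratio of 2 columns (vertical axis) summed over each Hox cluster in the tables with 1 column per genotype (pooled for H3K27me3 ChIP of day 8); vertical lines are exact 95% intervals for counting error only, and the horizontal blue line is the median of all peaks (C&R, CUT&RUN). HoxC lies above the median in both ESC tables for CaPS, and below it in day 10 embryoid bodies. HoxA, HoxB and HoxD do the same.

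Across the 12 time course libraries, with each experiment's mean removed, genes whose strongest interval followed HoxC closely were En2 (Pearson r = 0.979), Foxa2 (0.979), Bsx (0.978) and G630025P09Rik (0.973). En2, Foxa2 and Bsx encode developmental transcription factors. The strongest intervals of HoxA, HoxB and HoxD had r of 0.949, 0.872 and 0.883. These libraries share depth and enrichment, which move all strong peaks together, so r is given as a description. Of the TALE class cofactors that bind DNA with Hox proteins, 3 of 8 measured were called lower from WT ESC to day 8, namely Meis2 (log2 -4.14), Meis1 (-3.61) and Pknox2 (-3.26), by limma with adjusted p = 2.95e-21, 5.17e-16 and 8.94e-17. In this comparison 20.9% of all intervals were called lower. The median of the list was -0.92, against -0.79 over all genes. In CBX7 ChIP of ESC 3 of 5 measured cofactors were called lower in CaPS, Meis1 (-0.98), Pknox2 (-0.98) and Meis2 (-0.86), near the median of -0.88 over all genes, in a table with 44.3% of intervals called lower. Expression was not measured in these files, so the labelled stage could be checked only through RING1B over marker genes: from WT ESC to day 8, RING1B was called lower at 4 of 7 neural progenitor genes, 4 of 5 fibroblast genes and 1 of 6 pluripotency genes, against 20.9% of all intervals. In CaPS these counts were 2 of 7, 4 of 5 and 2 of 6, against 14.1%. The marker and cofactor counts took 1 interval per gene, whereas the shares beside them are over all intervals. From WT ESC to day 8 the median was -0.79 over genes and -0.61 over intervals. The share called over genes is not given, so the counts and shares are not directly comparable.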

How the data were processed

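The authors deposited peak tables annotated with HOMER on mm10, whose signal values are tags in each peak scaled to 10000000 tags per library, per the file headers. Upstream tools, from the submitters' processing notes, were HOMER 4.10.4, SAMtools 1.9, Bowtie2 2.3.4.3 and cutadapt 1.14, and the builds mm10 and dm6. The labels' protocols describe a Drosophila spike-in, which was not used for scaling here. Multiplied by library totals, 100.0% of the values were whole read ends within rounding. The design assumed a possible count test; since the values are scaled, limma 3.58.1 (R 4.3.3) on log2(value + 1), with trend, was the main test and edgeR 4.0.16 on recovered read ends an alternative. The experiment number was a block, because the design text says comparisons were made between experiments run together; deviations of same-numbered CBX7 libraries correlated at 0.04 to 0.30 and of RING1B ESC libraries at -0.02 to 0.23. P-values were adjusted by Benjamini-Hochberg over all peaks of a table, with a threshold of 0.05. Differences are on the log2(value + 1) scale, which understates changes of weak peaks. The prior degrees of freedom were infinite in all 5 fits, so p-values use the trend variance. The fit was tested on simulated data.

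Named were all 9 members with every interval under their names, the strongest interval of HoxA, HoxB and HoxD, and the 5 genes most alike in the time course, of which 1 is not reported here. Members and lists were chosen with earlier results of these data known. Pseudocounts of 0.5 and 8, a mean of at least 10, other scalings, a 2 kb distance and left-out replicates were tried. The cluster interval, the time course day 8 settings and the ratios to single clusters were added after seeing the data. Of the deposited columns, 2 were not used because no sample matched them. Intervals from tags cover counting error only. Python 3 scripts used scipy for exact tests.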

Additional observations from a re-analysis of the deposited data

How the results depend on the processing

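Scaling, left-out experiments and, for the CBX7 flank, the block changed calls or directions. With the summed peak tags of all libraries made equal, the CBX7 difference became 0.084 at the Hoxc4 flank and 0.086 in the cluster interval, the RING1B ESC interval 0.082, the day 8 RING1B Hoxc11 interval -0.41 (limma adjusted p = 0.00277), WT day 6 minus ESC 0.15, WT day 8 minus day 6 0.094, WT day 8 minus ESC 0.24, CaPS minus WT on day 6 -0.28 and on day 8 of the time course -0.63 (limma adjusted p = 0.000505). The H3K27me3 Mir615 segment became 0.023. The single-library ratios became 1.45 for H3K27me3 CUT&RUN, 1.34, 0.748 and 1.00 for RING1B CUT&RUN (CaPS to WT, mCaPS to CaPS, mCaPS to WT) and 0.890 for day 8 H3K27me3. On tags without scaling, the values were -0.98 at the CBX7 flank (no longer called), 0.54 in the day 8 Hoxc11 interval, 0.33 for WT and 0.52 for CaPS day 8 minus day 6, -0.092 and 0.10 for CaPS minus WT on days 6 and 8, 0.13 for the genotype difference and 0.079 for the Mir615 segment. The short day 8 intervals named Mir615 were then at 0.86, 0.0054 and 0.19, and 3 named Hoxc4 at 0.73, 0.81 and 0.078. Without the replicate block the CBX7 flank kept -0.95 but lost its call (limma adjusted p = 0.407), and calls over all CBX7 intervals went from 2801 lower to 2. The block changed no other call at an interval over or within 10 kb of HoxC. An exact permutation by sign flips within experiments (the replicate block) gave p = 0.25 for both Hox ratios, the smallest that 3 pairs allow. With HoxB alone as denominator the CBX7 ratio moved by -0.0061.

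Leaving out each replicate gave -1.09 to -0.80 at the CBX7 flank, -1.21 to -0.83 in the CBX7 interval and -0.99 to -0.47 in the RING1B interval. With 2 experiments the remaining pair gives a value and no test. These ran from -0.19 to 0.19 for H3K27me3 ESC at Hoxc9, -0.28 to 0.30 at Hoxc12, -0.28 to 0.17 at Mir615, -0.062 to 0.39 and -0.24 to 0.58 at the Hoxc4 intervals. They ran from -0.76 to 0.42 for WT day 8 minus day 6, -1.08 to 0.14 for CaPS day 6 minus ESC and -0.51 to 0.75 for CaPS minus WT on day 6. The short day 8 intervals gave -0.76 to 0.37 for Mir615, and -1.42 to 0.84 and -0.68 to 0.25 for Hoxc4. Without experiment 3, RING1B ESC calls went from 9 to 1098 lower. CBX7 calls went from 2801 to 103 lower with equal sums, to 1177 without experiment 1 and to 1526 without experiment 2. Pseudocounts, the mean filter and edgeR changed no call at HoxC. Within 2 kb of a start, no interval with a member's name was left in the CBX7 and RING1B ESC tables. The settings for CaPS minus WT on day 8 of the time course were chosen after seeing the data.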

Other observations

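Beyond the Hoxc4 end of the cluster, 2 of 3 RING1B intervals that carry the Hoxc4 name more than 10 kb from its start fell from ESC to day 8, where 20.9% of all intervals were called lower in WT and 14.1% in CaPS. The nearer, chr15:103056869-103063188, overlaps the long non-coding gene Gm30528. It held 342 and 363 normalised tags in WT ESC, 84.95 and 120 on day 6, and 47.4 and 58.0 on day 8, and in CaPS 177 and 159, 70.3 and 94.97, and 44.0 and 78.3. Both ESC libraries were above all later libraries in each genotype. The fall to day 8 at this Hoxc4 interval was by 2.72 on the log2 scale in WT (limma adjusted p = 5.28e-12) and by 1.498 in CaPS (limma adjusted p = 0.000557), and the difference between them did not pass (1.23, limma adjusted p = 0.503). In ESC itself this interval was lower in CaPS by 1.07 on the log2 scale in the time course without passing (-1.07, limma adjusted p = 0.385).

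The farther Hoxc4 interval, chr15:103084573-103088506, held 137 and 139 normalised tags in WT ESC and 30.5 and 29.02 on day 8, and in CaPS 143 and 165, then 51.3 and 69.5. It fell by 2.18 in WT (limma adjusted p = 1.12e-07) and by 1.35 in CaPS (limma adjusted p = 0.0032), with a difference between genotypes of 0.83 (limma adjusted p = 0.71). The CaPS call was lost without the replicate block (limma adjusted p = 0.063) and with equal summed peak tags (limma adjusted p = 0.149). On tags without scaling none of these falls passed (limma adjusted p from 0.211 to 0.891). The interval between them, 0.50 kb long, did not pass (WT -1.36, limma adjusted p = 0.304, and CaPS 1.53, limma adjusted p = 0.264).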
